A study of Mus musculus with 4 samples.

Results

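Spp1-high tumor macrophages were 98 cells from lung tumors of mice, 44 from a Rab37 knockout (KO) library and 54 from a wild-type (WT) library. They were chosen by their own RNA counts, from tumor cells in which 200 or more genes were found and mitochondrial RNA made up no more than 10%. Each had at least 10 unique molecular identifiers (UMIs, the counted RNA molecules) of Lyz2, the lysozyme gene of myeloid cells, and at least 0.3% of its UMIs from Spp1. Cells with 1% or more of UMIs from 10 neutrophil genes, with more than 2 UMIs of 5 alveolar macrophage genes, or with any UMI of Hmga2, Cd3e or Cd79a were left out. The same rule without Spp1 kept 502 tumor cells, here called macrophage-rule cells, and the 404 of them below 0.3% Spp1 (297 KO, 107 WT) are the Spp1-low cells. The 98 stood among 3376 tumor cells passing and 13344 cells passing in the whole series.

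The series held 4 libraries of live CD45-positive cells, sorted from C57BL/6 mice that were Rab37 KO or WT and counted with 10x Genomics 3′ single-cell chemistry. Tumor mice of each genotype had been injected with the mouse lung carcinoma line LLC, and their tissue was taken at day 14. Normal-lung mice of each genotype had been injected with Matrigel, a basement membrane gel, and were also sampled at day 14. Each of the groups tumor Rab37 KO, tumor WT, normal Rab37 KO and normal WT had 1 library, so no spread between animals is known and no test was made. Ages, the number of mice pooled in a library and the tissue or cell type in which Rab37 was lost are not given in the sources used here. All intervals are exact 95% intervals (Poisson for levels, conditional binomial for ratios, Clopper-Pearson for shares) and cover counting error only.

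Spp1 encodes osteopontin, a secreted glycoprotein that binds integrins and CD44 and that macrophages can both release and sense. Macrophages rich in Spp1 are known from many solid tumors and from scarred lung, where they often carry Gpnmb, a lysosomal and surface glycoprotein, together with Trem2, Fabp5 and cathepsins, genes of lipid uptake and lysosomal breakdown. Rab37 is a small GTPase of secretory vesicles, and the series asks, by its title, whether osteopontin secretion through Rab37 enriches such macrophages in lung tumors.

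Spp1-high cells took a smaller share of macrophage-rule cells in the Rab37 KO library. They were 44 of 341 macrophage-rule cells in tumor Rab37 KO (12.9%, 9.53 to 16.9) and 54 of 161 in tumor WT (33.5%, 26.3 to 41.4), or 1.61% and 8.35% of all passing cells of the KO and the WT library. In normal lung the same rule found 0 of 368 macrophage-rule cells in Rab37 KO and 0 of 440 in WT, which allows shares of up to 0.815% and 0.682% by the 3-count limit used here for a share or level of 0. Of normal lung cells with at least 0.3% Spp1, 16 in KO and 14 in WT were left after the Lyz2 and neutrophil steps, and all were removed by the limit on alveolar macrophage genes. These shares follow from the rule and are a description. With a limit of 0.6% Spp1 they were 6.16% in KO and 24.8% in WT.

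Spp1 (ENSMUSG00000029304, chromosome 5, 104435118 to 104441050, plus strand, mm10) spread unevenly over the chosen cells. Its share of a cell's UMIs had a lowest value of 0.307%, a median of 0.552% and a highest of 3.73% in KO, against 0.303%, 1.14% and 4.90% in WT. At least 1% was reached by 10 KO cells and 29 WT cells, and at least 2% by 2 KO cells and 18 WT cells. The distributions overlapped, with the upper end made mainly of WT cells. The members nearest the limit held 0.307%, 0.316% and 0.332% in KO and 0.303%, 0.326% and 0.344% in WT, while the nearest cells outside held 0.284%, 0.284% and 0.276% in KO and 0.292%, 0.268% and 0.221% in WT. The limit cut through a continuum, with 41 KO cells and 18 WT cells between 0.2% and 0.4%. Members carried 15.5% of all Spp1 UMIs of the KO library and 69.0% of those of the WT library.

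**Figure D1:**
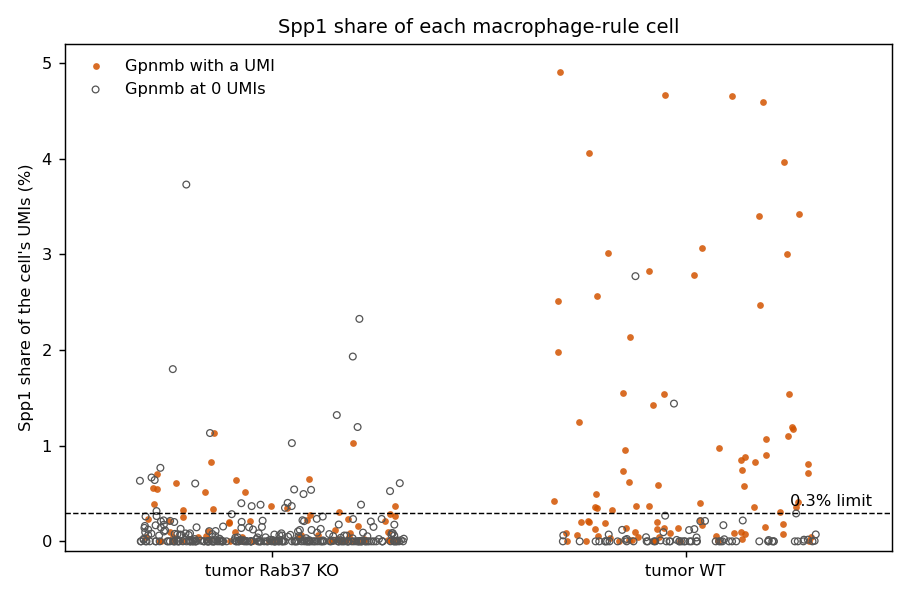
Spp1 share of UMIs (percent, vertical axis) of each macrophage-rule cell in tumor Rab37 KO (341 cells) and tumor WT (161 cells), with the 0.3% limit dashed; filled orange points hold Gpnmb and open points hold 0 Gpnmb UMIs. WT cells above the limit are nearly all filled (52 of 54), while 26 of the 44 KO cells above it are open.

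The name of the cells was checked against Gpnmb, which the rule did not use, and the libraries differed. Gpnmb (ENSMUSG00000029816, chromosome 6, 49036546 to 49070929, plus strand) had at least 1 UMI in 18 of 44 Spp1-high cells of tumor Rab37 KO (40.9%, 26.3 to 56.8) and in 52 of 54 of tumor WT (96.3%, 87.3 to 99.5). After every cell was thinned to 3000 UMIs, Gpnmb was found in 27.3% of KO and 80.4% of WT Spp1-high cells, so the gap was also there at equal depth. Among Spp1-low cells the unthinned shares were 17.5% in KO and 36.4% in WT. The data thus go against the label marker Gpnmb in 26 of 44 KO members, which are called Spp1-high by their rule, and the Gpnmb-positive and Gpnmb-0 members of that library are also described apart.

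The promoters of Spp1, Gpnmb and Ctsd are shown because the first gene defines the cells, the second splits them and the third leads the lysosomal genes described next. Sequences are RefSeq windows on GRCm38.p6 from 250 bases before to 50 after the start site, 5′ to 3′ on the gene's strand. Capitals mark matches to GAGGAAGT (an ETS-type motif), TGANTCA (an AP-1-type motif) and CACGTG (an E-box bound by the MiT/TFE factors of lysosomal genes), each searched on both strands.
Spp1, chr5:104434861-104435160, plus strand: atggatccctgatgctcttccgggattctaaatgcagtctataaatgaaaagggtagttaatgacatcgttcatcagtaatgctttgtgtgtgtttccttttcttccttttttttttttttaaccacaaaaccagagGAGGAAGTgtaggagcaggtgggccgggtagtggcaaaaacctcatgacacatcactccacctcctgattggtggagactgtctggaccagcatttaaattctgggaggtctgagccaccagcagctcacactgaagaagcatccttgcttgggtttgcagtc
Gpnmb, chr6:49036268-49036567, plus strand: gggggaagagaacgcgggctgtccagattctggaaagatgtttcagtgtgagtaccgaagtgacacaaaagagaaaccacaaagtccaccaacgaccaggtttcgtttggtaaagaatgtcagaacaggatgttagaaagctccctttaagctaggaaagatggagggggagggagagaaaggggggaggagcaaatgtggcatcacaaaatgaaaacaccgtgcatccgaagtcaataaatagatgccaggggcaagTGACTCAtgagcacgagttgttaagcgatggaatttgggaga
Ctsd, chr7:142387778-142388077, minus strand: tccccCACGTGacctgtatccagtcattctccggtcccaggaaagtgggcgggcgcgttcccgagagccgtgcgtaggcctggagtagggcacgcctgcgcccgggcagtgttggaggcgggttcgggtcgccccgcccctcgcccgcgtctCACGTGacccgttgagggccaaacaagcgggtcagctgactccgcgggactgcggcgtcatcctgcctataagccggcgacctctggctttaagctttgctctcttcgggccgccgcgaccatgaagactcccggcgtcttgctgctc
Of all 32851 promoter windows, 3.20% held GAGGAAGT, 7.81% TGANTCA and 7.15% CACGTG. The last stood in 5 of 24 windows of the lysosome list (Atp6v1a, Ctsd, Ctsl, Lamp1 and Mcoln1). A match describes these letters and is no evidence of binding.

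Depth and other cell types were looked at next. The tumor libraries held 3065 barcodes with 31165927 UMIs in KO and 674 barcodes with 5275118 UMIs in WT. Spp1-high cells had a median of 16720.5 UMIs in KO and 16637.5 in WT, deeper than the Spp1-low cells with 10222 in KO and 7315 in WT, and the member pools summed to 813932 and 867738 UMIs. All 8 macrophage markers had UMIs in members of both libraries, with a summed level of 5201 CPM (UMIs scaled to equal library totals) in KO and 4866 CPM in WT. C1qb and C1qa led these sums, and Spp1-low cells had 4531 CPM in KO and 4169 CPM in WT. Classical monocyte markers summed to 1487 CPM in KO members and 379 CPM in WT members. In Spp1-low cells they summed to 2639 CPM in KO and 1469 CPM in WT, and over all passing cells to 1152 CPM in KO and 787 CPM in WT. Dendritic cell markers summed to 4 UMIs in KO and 5 in WT members, with Flt3, Zbtb46 and Clec9a at 0. The 10 neutrophil genes, limited by the rule, summed to 1811 CPM in KO and 552 CPM in WT members. NK cell markers summed to 98 UMIs in KO members and 0 in WT members, and their part in the KO to WT ratios was not tested. The limit on neutrophil genes removed 63 KO cells and 7 WT cells of at least 0.3% Spp1. Spp1 UMIs were also found in 44 of 92 KO and 18 of 36 WT cells with 2 or more Cd3e UMIs (median depths 10981 and 5338 UMIs), and made up at least 0.3% of UMIs in 5 and 4 of them. Their pooled Spp1 level was 849.5 CPM in KO and 3923 CPM in WT, the WT value above the 0.3% limit. Cells with 2 or more Cd79a UMIs had Spp1 in 31 of 102 in KO and 6 of 64 in WT, at pooled levels of 1312 CPM in KO and 1101 CPM in WT. The part of this background in the members' Spp1 was not tested. Macrophage-rule cells shared 0 barcodes between libraries.

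Spp1-high cells carried more RNA of lysosomal genes than Spp1-low cells of the same library. Genes are called higher or lower here at a 1.5-fold ratio of summed CPM, among genes with at least 20 UMIs. In KO, 17 of 24 lysosome and acid secretion genes were higher and 1 lower (median log2 ratio 0.87), and in WT 15 of 23 were higher and 0 lower (median 0.76). Over all genes, 10.2% were higher and 15.2% lower in KO (9106 genes, median -0.06), and 8.63% higher and 23.9% lower in WT (6852 genes, median -0.20). The same 15 list members were higher in both libraries, where 2.83% of 6827 genes were, 5.33% were lower in both and 1.41% differed in opposite ways.

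Ctsd, the aspartic protease cathepsin D, was counted at 7372 CPM in Spp1-high and 1614 CPM in Spp1-low cells of KO, a ratio of 4.57 (4.41 to 4.73). In WT it stood at 6505 CPM in Spp1-high and 2447 CPM in Spp1-low cells, a ratio of 2.66 (2.53 to 2.79). Ctsd was thus near the same level in the Spp1-high cells of both libraries. Gpnmb was 6.82-fold higher in Spp1-high cells of KO (1071 against 157 CPM in Spp1-low cells) and 3.41-fold higher in those of WT (2118 against 621 CPM), but 1 cell held 35.2% of the KO UMIs. Atp6v0d2, a subunit of the proton pump that acidifies lysosomes, had 161 CPM in Spp1-high and 34.4 CPM in Spp1-low cells of KO, and 393 CPM in Spp1-high and 69.5 CPM in Spp1-low cells of WT. Ctsk, the cathepsin best known from osteoclasts, had ratios of 7.67 in KO and 4.59 in WT, with 71.3% of its KO UMIs in 1 cell. Ctsl and Ctsb, further cathepsins, were 1.73-fold and 1.69-fold higher in KO and 3.16-fold and 1.93-fold higher in WT.

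Other vesicle and lysosome genes stood high in the ranking by the smaller of the KO and WT ratios. The vesicle membrane gene Syngr1 came first, with 203 CPM in Spp1-high and 30.3 CPM in Spp1-low cells of KO (6.69-fold, 5.27 to 8.52) and 391.8 CPM in Spp1-high and 100.1 CPM in Spp1-low cells of WT (3.91-fold, 3.12 to 4.95). Pld3, a lysosomal exonuclease, was 3.57-fold higher in KO and 2.92-fold in WT. Creg1, a lysosomal glycoprotein, was 2.68-fold higher in KO and 2.93-fold in WT. Cd63, a tetraspanin of late endosomes, was 2.93-fold higher in KO and 2.49-fold in WT. Slpi, a secreted inhibitor of neutrophil proteases, also ranked high (5.05-fold in KO, 3.41-fold in WT), but 1 cell held 57.7% of its KO UMIs. Also among the first 15 were Cd9, a tetraspanin (3.31-fold in KO, 2.02-fold in WT), Bst1, an ectoenzyme, Vat1, a vesicle membrane protein, and Timp2, an inhibitor of matrix proteases, the last 3 between 1.84-fold and 2.44-fold. Against C1q-positive Spp1-low cells of KO, Timp2 had a ratio of 0.991 and Vat1 of 1.44.

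Lipid handling genes were higher in the same cells. In KO, 10 of 19 were higher and 1 lower (median 0.65), and in WT 10 of 19 were higher and 1 lower (median 0.66). Of the list, 9 were higher in both libraries and Scarb1, a lipoprotein receptor, was lower in both. Among all genes 10.2% were higher and 15.2% lower in KO, and 8.63% and 23.9% in WT. Fabp5, a fatty acid carrier, stood at 1818 CPM in Spp1-high and 702 CPM in Spp1-low cells of KO (2.59-fold, 2.43 to 2.76), and at 7439 CPM in Spp1-high and 2793 CPM in Spp1-low cells of WT (2.66-fold, 2.55 to 2.79). The ratios were alike while the KO levels lay about 4 times under the WT levels in each kind of cell. Trem2, a lipid-sensing receptor, was 3.40-fold higher in KO (753 against 222 CPM in Spp1-low cells) and 2.35-fold in WT (1223 against 521 CPM in Spp1-low cells). Apoe, the apolipoprotein through which macrophages release cholesterol, had ratios of 2.00 in KO and 2.14 in WT. Lipa, the lysosomal acid lipase, had 2.66 in KO and 1.77 in WT. Lpl, lipoprotein lipase, had 2.39 in KO and 5.07 in WT.

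Genes of MHC class II presentation, which displays antigen to CD4 T cells, lay at the other end. In KO 9 of 10 were lower in Spp1-high than in Spp1-low cells (median -2.11), and in WT 7 of 8 (median -1.43). Among all genes 15.2% were lower in KO and 23.9% in WT. Of the class II genes 3 in KO and 1 in WT had under 10 UMIs in Spp1-high cells. They passed the minimum mainly through the Spp1-low cells, which sets their direction in part. The exception in each library was Ctss, the cathepsin that trims the invariant chain. H2-Ab1 had 241 CPM in Spp1-high and 1378 CPM in Spp1-low cells of KO (ratio 0.175, 0.151 to 0.202), and 936 CPM in Spp1-high and 2774 CPM in Spp1-low cells of WT (ratio 0.337, 0.312 to 0.365). Cd74, the invariant chain, had ratios of 0.253 in KO and 0.406 in WT. Ciita, the transactivator of these genes, had 1 UMI in the Spp1-high cells of each library, against 59 UMIs in KO and 45 UMIs in WT Spp1-low cells. The pools differ in size, with 813932 UMIs in Spp1-high and 4093724 in Spp1-low cells of KO, and 867738 and 978783 in WT. Dendritic cell markers moved the same way, and their part was not tested. They summed to 102 CPM (417 UMIs) in Spp1-low cells and 4.91 CPM (4 UMIs) in members of KO. In WT they summed to 43.9 CPM (43 UMIs) in Spp1-low cells and 5.76 CPM (5 UMIs) in members.

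Monocyte genes were also lower. In KO 7 of 12 were lower and 1 higher (median -0.80), and in WT 9 of 12 were lower and 1 higher (median -2.03), with 1 KO gene and 3 WT genes that passed mainly through the Spp1-low cells. Among all genes 15.2% were lower in KO and 23.9% in WT. Plac8 had 279 CPM in Spp1-high and 879 CPM in Spp1-low cells of KO, and 24.2 CPM in Spp1-high and 660.0 CPM in Spp1-low cells of WT, so its ratio was 0.317 in KO and 0.0367 in WT, where 76.2% of the Spp1-high UMIs lay in 1 cell. Ccr2, the receptor by which monocytes leave the marrow, had ratios of 0.504 in KO and 0.178 in WT, and Ly6c2 had 0.203 and 0.294 in the KO and the WT library. Fn1, fibronectin, was the higher one in KO (1.61) and Chil3 in WT (1.60, with 29.3% of the Spp1-high UMIs in 1 cell). The heat shock genes Hspa1a and Hspa1b, which also mark stress during tissue digestion, had ratios of 0.449 and 0.492 in KO and 0.393 and 0.503 in WT. They belong to a list of 14 dissociation stress genes. Of these, 6 were lower in KO (median -0.44) and 11 in WT (median -0.82), with 0 higher in each, and their part was not tested. The other genes among the first 15 lower ones were Napsa, Gsr, Ifitm1, Ptprc, Hmgb2, Samhd1 and Psme1, with ratios from 0.479 to 0.570 in KO and from 0.251 to 0.558 in WT. Napsa turned to 1.52 in KO against C1q-positive Spp1-low cells.

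**Figure D2:**
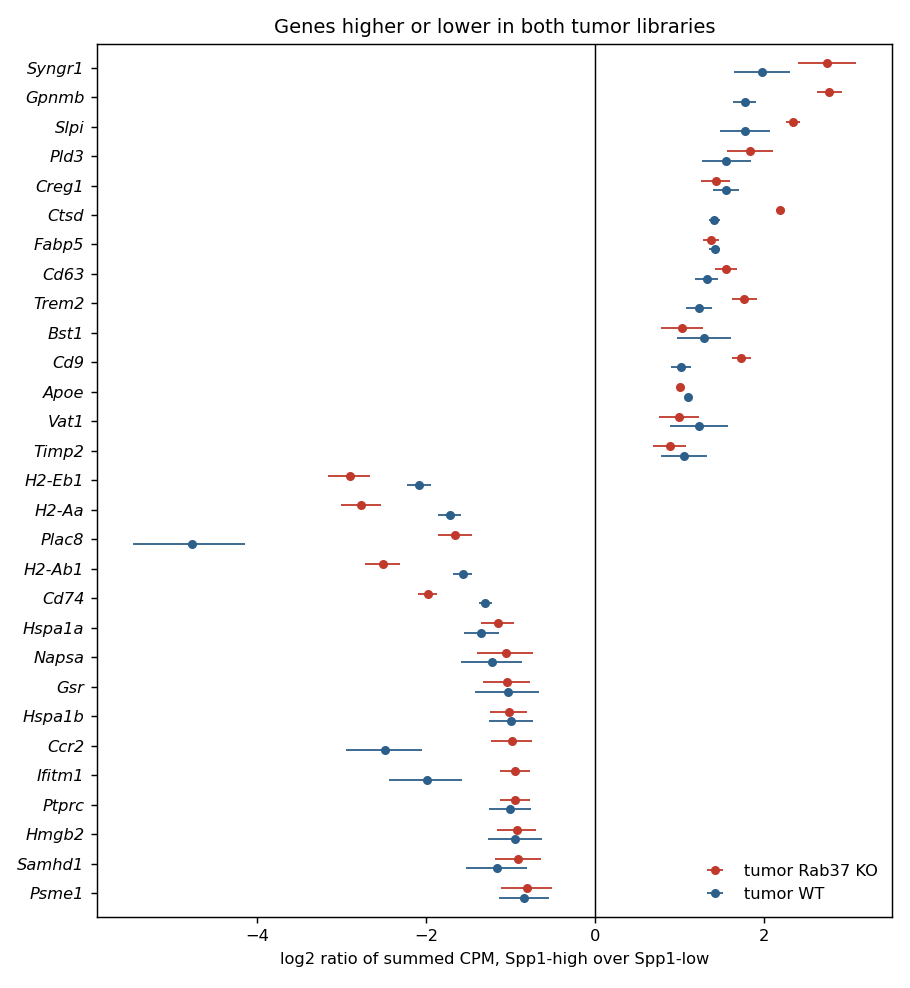
Log2 ratio of summed CPM in Spp1-high over Spp1-low cells for 14 of the 15 higher and all 15 lower genes ranked first, with exact 95% intervals from counting, in tumor Rab37 KO (red) and tumor WT (blue). Lysosomal and lipid genes lie to the right of 0 and MHC class II and monocyte genes to the left, with Plac8 and Ccr2 farther left in WT than in KO.

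Osteopontin receptors had called members in both directions. Of 7 receptor genes in KO, 2 were higher and 1 lower (median 0.09), and of 6 in WT, 0 were higher and 2 lower (median -0.32), where 25.4% of all genes in KO and 32.5% in WT were called either way. Cd44 had 575 CPM in Spp1-high and 631 CPM in Spp1-low cells of KO (ratio 0.911, 0.824 to 1.01), and 221 CPM in Spp1-high and 312 CPM in Spp1-low cells of WT (ratio 0.710, 0.590 to 0.853). Itgb1, the beta-1 integrin subunit, had ratios of 1.30 in KO and 1.00 in WT. Itgb5, a partner of the alpha-v subunit, was 1.89-fold higher in KO and had a ratio of 0.920 in WT. Itga4 was lower in both libraries, with 0.654 in KO and 0.462 in WT. Itga9 was just past the call in KO, with a ratio of 1.502 on 23 UMIs in Spp1-high cells, and had 2 UMIs in the Spp1-high cells of WT. Itgav had a ratio of 1.06 in KO and was lower in WT (0.547, on 16 UMIs in Spp1-high cells). Itgb3 had 0 UMIs in KO and 1 UMI in WT members.

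Other lists were counted in the same way, where 10.2% of all genes were higher and 15.2% lower in KO, and 8.63% and 23.9% in WT. Of the complement and resident macrophage genes, 0 of 13 were higher and 1 lower in KO and 3 of 11 were higher and 2 lower in WT, with C1qa at ratios of 1.13 in KO and 1.25 in WT. Of the inflammatory cytokine genes, 3 of 16 were higher and 3 lower in KO (median 0.03), against 2 of 15 higher and 10 lower in WT (median -1.07). Il1b, the interleukin 1 beta gene, had a ratio of 1.04 in KO (1949 CPM in Spp1-high, 1865 CPM in Spp1-low cells) and 0.172 in WT (72.6 CPM in Spp1-high, 423 CPM in Spp1-low cells). In hypoxia and glycolysis, 0 of 18 genes were higher in KO and 0 of 17 in WT, with 2 and 1 lower. In iron and heme handling, 3 of 11 were higher in KO and 7 of 9 in WT, where Hmox1, which degrades heme, had a ratio of 2.56 against 0.944 in KO. Interferon response genes were lower for 7 of 14 in KO and 8 of 11 in WT, but 4 genes in each library passed mainly through the Spp1-low cells. Among growth factors, Igf1 was higher in both libraries (6.99-fold in KO, with 39.0% of UMIs in 1 cell, and 2.18-fold in WT).

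Against C1q-positive Spp1-low cells fewer lysosome and lipid genes were called. The Spp1-low cells also held more monocyte RNA, so Spp1-high cells were also set against Spp1-low cells with at least 0.1% of UMIs from C1qa, C1qb and C1qc. Lysosome genes were then higher for 11 of 24 in KO (median 0.51) and 10 of 23 in WT (median 0.53), with 1 and 0 lower, where 7.46% of 8148 genes in KO and 10.4% of 5714 in WT were higher. Lipid handling genes were higher for 6 of 18 and lower for 1 in KO (median 0.38), and higher for 8 of 17 and lower for 0 in WT (median 0.56). Apoe had ratios of 1.33 in KO and 1.35 in WT and was no longer called. MHC class II genes were lower for 7 of 8 in KO and 7 of 8 in WT, with 1 in each that passed mainly through the Spp1-low cells, where 15.2% of genes in KO and 19.9% in WT were lower. Monocyte genes had a median of -0.03 in KO, with 0 of 11 lower, and of -1.85 in WT, with 6 of 10 lower. Dissociation stress genes had medians of -0.05 in KO and -0.79 in WT. Against the C1q-negative Spp1-low cells, MHC class II genes were lower for 9 of 10 in KO, where 16.1% of 7905 genes were higher and 16% lower (32.1% either), and for 7 of 8 in WT, where 11.1% of 6109 genes were higher and 26.3% lower (37.3% either).

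Along the range of Spp1, the libraries followed different courses. Cells were put in 6 ranges of Spp1 share, with 149, 92, 56, 23, 17 and 4 cells in KO and 51, 32, 24, 14, 18 and 22 cells in WT, so that the last 2 ranges in KO and those with 14 and 18 cells in WT rest on under 20 cells. Gpnmb in KO stood at 35.8, 118, 403, 1785, 385 and 0 CPM from the lowest to the highest range, and in WT at 155, 623, 1307, 1449, 3192 and 1695 CPM. Gpnmb was highest at 0.3 to under 0.6% Spp1 in KO and at 0.6 to under 1.5% in WT. Fabp5 in KO peaked in the same range at 2781 CPM and stood at 254 CPM in the 4 cells with most Spp1, while in WT it went up with Spp1 to 8331 CPM in the top 22 cells. H2-Ab1 was highest in cells without Spp1 in each library, at 1734 CPM in KO and 3213 CPM in WT, and stood at 56.3 CPM in KO and 680.5 CPM in WT in the top range. Il1b stayed between 1635 and 2493 CPM in all 6 KO ranges, and in WT it was 657 CPM without Spp1 and 16.8 CPM in the top range.

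**Figure D3:**
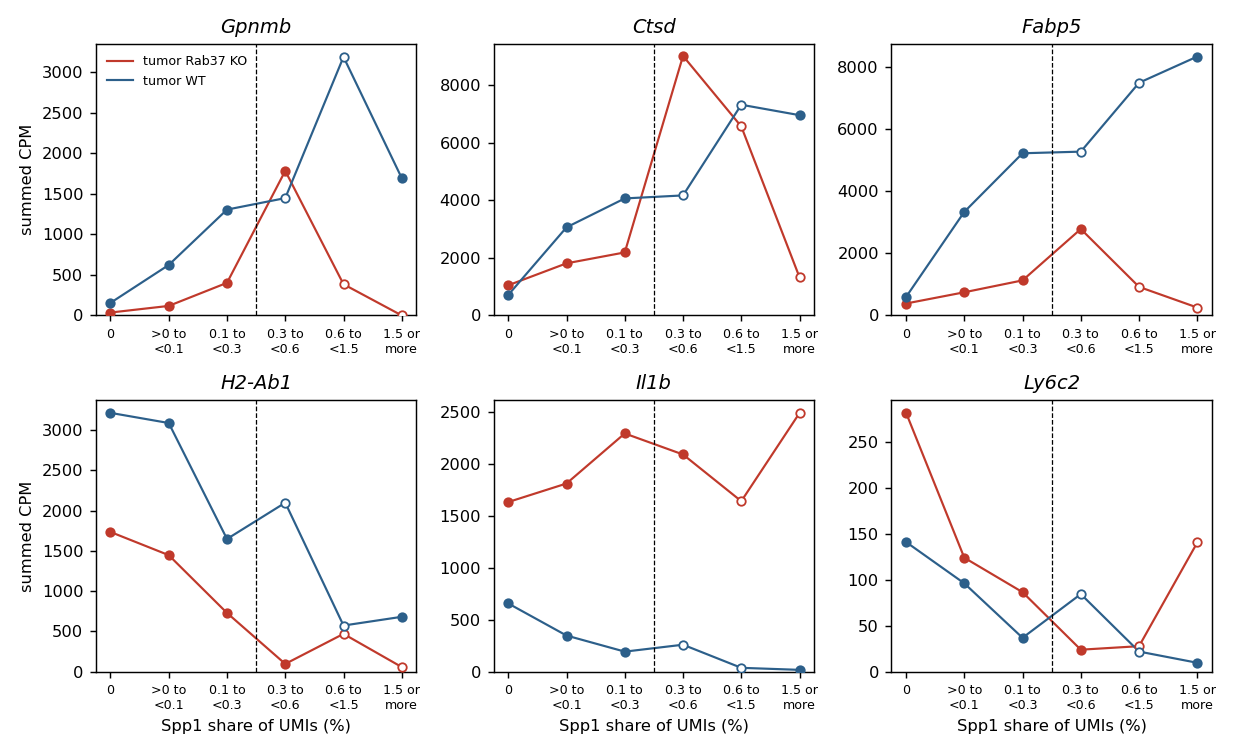
Summed CPM of 6 genes by range of Spp1 share of UMIs (percent) in tumor Rab37 KO (red) and tumor WT (blue); open points rest on fewer than 20 cells and the dashed line marks 0.3%. Gpnmb, Ctsd and Fabp5 stand at 0, 1324 and 254 CPM in the highest KO range and at 1695, 6961 and 8331 CPM in the highest WT range, and Il1b is at 1635 CPM or more in every KO range.

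Within tumor Rab37 KO the Spp1-high cells were split by whether they held a Gpnmb UMI, a split made after its values had been seen. The Gpnmb-positive cells held up to 307 Gpnmb UMIs, and 3 of them held only 1 or 2. The split is thus a cut at detection and does not show separate kinds of cell. The 18 Gpnmb-positive cells had a median of 22184 UMIs, and the 26 with Gpnmb at 0 had 12183.5, so depth goes with the split and its part was not tested. Median Spp1 was 0.535% in the Gpnmb-positive and 0.607% in the Gpnmb-0 cells, and 8 of 18 and 12 of 26 were positive for C1q. Of the 10 KO cells with at least 1% Spp1, 2 were Gpnmb-positive and 8 were not, and the 4 with at least 1.5% all had Gpnmb at 0. In WT, 27 of the 29 cells with at least 1% Spp1 were Gpnmb-positive. The neutrophil genes summed to 1809 CPM in Gpnmb-positive and 1813 CPM in Gpnmb-0 KO cells.

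The Gpnmb-positive KO cells carried the lysosomal and lipid genes. Of 22 lysosome genes, a list that holds Gpnmb itself, 19 were higher in Gpnmb-positive than in Gpnmb-0 KO cells and 0 lower (median 1.99), where 19.3% of 4746 genes were higher and 17.9% lower. The direction of Gpnmb is set by the split. Ctsk, Atp6v0d2 and Syngr1 had 1, 2 and 3 UMIs in Gpnmb-0 cells. They passed the minimum mainly through the Gpnmb-positive cells, which sets their direction in part. Of 17 lipid handling genes 13 were higher and 0 lower (median 1.19). Cd63 had 1593 CPM in Gpnmb-positive and 172 CPM in Gpnmb-0 cells (9.28-fold, 7.19 to 12.2), Fabp5 had 3105 CPM in Gpnmb-positive and 341 CPM in Gpnmb-0 cells (9.12-fold, 7.61 to 11.0), and Ctsd was 5.33-fold higher. The same Gpnmb-positive cell held 35.2% of Gpnmb, 20.1% of Cd63, 17.0% of Fabp5 and 17.0% of Ctsd UMIs of its group. Medians over single Gpnmb-positive cells were 1319 CPM for Cd63, 1636 CPM for Fabp5 and 8610 CPM for Ctsd. In Gpnmb-0 cells they were 102, 31.7 and 1208 CPM. Syngr1 was found in 12 of 18 Gpnmb-positive and 3 of 26 Gpnmb-0 cells, and Atp6v0d2 in 12 of 18 and 2 of 26. Lyz2 itself had 34195 CPM in Gpnmb-positive and 9661 CPM in Gpnmb-0 cells. Against Gpnmb-positive WT cells, the genes differed in size and direction. The levels of Syngr1, Cd63, Trem2 and Ctsk in Gpnmb-positive KO cells lay at 0.929, 0.975, 0.921 and 1.05 times those in Gpnmb-positive WT cells (1 cell held 71.9% of the Ctsk UMIs in KO), and the 23 lysosome genes had a median log2 ratio of 0.05, with 3 higher and 4 lower, where 26.1% of 5785 genes were higher and 10.9% lower. The 17 lipid handling genes had a median of -0.19, with 2 higher and 4 lower. Ctsd was higher in KO (11855 CPM in KO, 6620 CPM in WT), while Fabp5 (0.409), Lpl (0.184), Fabp4 (0.324) and Creg1 (0.588) had lower levels in KO.

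The Gpnmb-0 KO cells carried more inflammatory and monocyte RNA than the Gpnmb-positive KO cells. Of 15 inflammatory cytokine genes, 0 were higher and 13 lower in Gpnmb-positive than in Gpnmb-0 KO cells (median -1.51). Il1b had 735 CPM in Gpnmb-positive and 3342 CPM in Gpnmb-0 cells, where it was found in 24 of 26 cells and 11.4% of its UMIs lay in 1 cell. Cxcl2, a neutrophil-attracting chemokine, had 6491 CPM in Gpnmb-positive and 20864 CPM in Gpnmb-0 cells, with UMIs in 17 of 18 and 26 of 26 cells. Ptgs2, the inducible cyclooxygenase, had 425 CPM in Gpnmb-positive and 1019 CPM in Gpnmb-0 cells. Of 11 monocyte genes, 0 were higher and 8 lower in Gpnmb-positive than in Gpnmb-0 KO cells (median -0.98), where 17.9% of all genes were lower. Vcan had 179 CPM in Gpnmb-positive and 517 CPM in Gpnmb-0 cells. Relative to Spp1-low KO cells, 5 of 12 monocyte genes were lower and 1 higher in Gpnmb-0 cells (median -0.29). In Gpnmb-positive cells 10 of 12 were lower and 0 higher (median -1.39). Against Spp1-low KO cells, the Gpnmb-0 cells had 8 of 16 inflammatory genes higher and 1 lower (median 0.55), where 11% of 8920 genes were higher, and 1 of 24 lysosome genes higher and 8 lower (median -0.39), where 21.7% were lower. MHC class II genes were lower in the Gpnmb-0 cells too (8 of 10, median -1.79). Against Spp1-low KO cells, the Gpnmb-positive cells had 21 of 24 lysosome genes higher and 1 lower (median 1.48), where 15.4% of 8981 genes were higher, and 12 of 16 inflammatory genes lower (median -0.81), where 21.4% were lower. In both comparisons with Spp1-low cells the lysosome list holds Gpnmb, whose direction follows from the split.

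Some levels in the Gpnmb-0 cells rested on 1 cell. In them, 1 cell held 62.3% of Slpi, 69.7% of Prg4, 85.4% of Cd5l, 85.6% of Saa3, 45.3% of Cxcl1 and 43.0% of Ecm1 UMIs, and it was the same cell for these 6 of 9 genes looked at. Other cells led the rest, among them Terf2ip with 90.7% and Ccl24 with 40.3% of UMIs in 1 cell. Without the cell shared by the 6 genes, Slpi stood at 2474 CPM and Saa3 at 445 CPM in Gpnmb-0 cells, against 6082 and 2869 CPM with it. Over all KO members Mki67, a cell-cycle gene, was as narrow, with 89.7% of its 29 UMIs in 1 cell. That cell was Gpnmb-positive, and the Gpnmb-0 cells held 2 Mki67 UMIs.

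**Figure D4:**
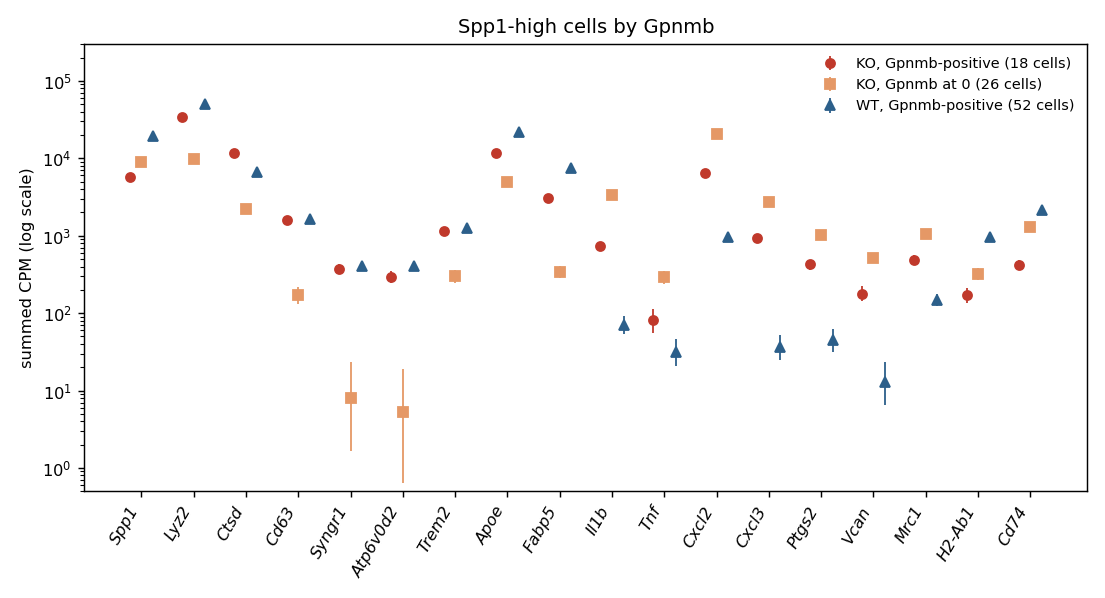
Summed CPM (log axis, exact 95% Poisson intervals) of 18 genes in Spp1-high cells, as 18 Gpnmb-positive KO cells (red circles), 26 Gpnmb-0 KO cells (orange squares) and 52 Gpnmb-positive WT cells (blue triangles). Red circles lie near the blue triangles for Cd63, Syngr1, Atp6v0d2 and Trem2, while the orange squares are lowest there and highest for Il1b, Tnf, Cxcl2, Cxcl3 and Ptgs2.

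Between genotypes, Spp1-high cells of the Rab37 KO library held more inflammatory RNA and less lipid and MHC class II RNA than those of WT. Of 6586 genes, 28.7% were at least 1.5-fold higher in KO and 12.2% lower (median log2 ratio 0.18). KO members came from male cells by Y-linked RNA (36 of 44 with Y-linked UMIs only and 0 Xist UMIs) and WT members from female cells (51 of 54 with Xist only and 0 Y-linked UMIs), so sex and genotype cannot be told apart. Rab37 (ENSMUSG00000020732, chromosome 11, 115091431 to 115162236, plus strand), the deleted gene, had 0 UMIs in KO members and 1 UMI in WT members, so it could not be checked in these cells at this depth. A count of 0 allows up to 3.69 CPM in KO members, which is above the 1.15 CPM of the 1 WT UMI. Over all passing tumor cells it had 8 UMIs (0.266 CPM) in KO and 25 UMIs (4.79 CPM) in WT.

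Inflammatory cytokine genes were higher in KO for 13 of 16 and lower for 0 (median 2.58), where 28.7% of all genes were higher and 12.2% lower. Cxcl3, a neutrophil-attracting chemokine, had 1768 CPM in KO and 42.6 CPM in WT members (41.5-fold, 29.9 to 59.1). Il1b had 1949 CPM in KO and 72.6 CPM in WT (26.8-fold, 20.9 to 35.1), and Cxcl2 had 13180.5 CPM in KO and 998 CPM in WT (13.2-fold, 12.3 to 14.2). Cxcl1 (33.05-fold), Ptgs2 (14.2-fold) and the chemokine genes Ccl12 (33.9-fold) and Ccl24 (33.6-fold) were also higher in KO, with 40.0%, 13.5%, 39.7% and 34.3% of KO UMIs in 1 cell. Prg4, a lubricating proteoglycan, had 299 CPM in KO members and 0 UMIs in WT members, at least 86.4-fold higher against a floor of 3 counts in the WT pool, but 68.3% of its KO UMIs lay in 1 cell. The neutrophil genes summed to 1811 CPM in KO and 552 CPM in WT members, and their part was not tested. With the limit on neutrophil genes set to 0.1% the cytokine list had a median of 2.55, and among Gpnmb-positive cells alone it was 1.65. Early response genes that also mark tissue digestion were higher in KO for 8 of 14 and lower for 0 (median 0.71), and their part was not tested.

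Most inflammatory genes were higher in KO among Spp1-low cells too. In Spp1-low cells, 14 of 16 inflammatory genes were higher and 0 lower in KO (median 1.77), where 21.6% of 9211 genes were higher, 15.4% lower and 37% either. Il1rn was called in Spp1-high cells only, and Ccl7 and Ccl2 in Spp1-low cells only, a difference that was not tested. The KO over WT ratio of Cxcl3 was 41.5 in Spp1-high and 12.7 in Spp1-low cells, and that of Il1b 26.8 in Spp1-high and 4.41 in Spp1-low cells. Ccl5, a T cell attracting chemokine, had 13.9 in Spp1-high and 1.08 in Spp1-low cells, but 44.2% of its KO and 87.5% of its WT UMIs in Spp1-high cells lay in 1 cell each. Monocyte genes were higher in KO members for 9 of 11 and lower for 1 (median 1.84), where 28.7% of all genes were higher and 12.2% lower. They were led by Vcan, a matrix proteoglycan of classical monocytes (337 CPM in KO, 16.1 CPM in WT), and Thbs1, thrombospondin 1, with 4063 CPM in KO and 562 CPM in WT. In Spp1-low cells 6 of 12 monocyte genes were higher and 1 lower in KO (median 0.68).

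Lipid, lysosome and MHC class II genes went the other way. Of 18 lipid handling genes 1 was higher and 10 lower in KO members (median -0.65), where 28.7% of all genes were higher and 12.2% lower. Lpl had 90.9 CPM in KO and 611 CPM in WT (ratio 0.149, 0.115 to 0.190), Fabp4 had 86.0 CPM in KO and 423 CPM in WT (ratio 0.203), and Fabp5 had a ratio of 0.244 in Spp1-high and 0.251 in Spp1-low cells. Abca1, which exports cholesterol, was the higher one (2.54-fold). Of 23 lysosome genes, 0 were higher and 11 lower (median -0.54), and of 7 MHC class II genes all 7 were lower (median -1.74, and -0.65 with a limit of 0.6% Spp1). In Spp1-low cells, 16 of 24 lysosome genes were lower in KO too (median -0.69). So were 9 of 19 lipid handling genes (median -0.54) and 8 of 10 MHC class II genes (median -0.84) of the Spp1-low cells. In each of these lists 2 genes were higher in Spp1-low cells, where 21.6% of all genes were higher and 15.4% lower. H2-Ab1 had a ratio of 0.257 (0.219 to 0.301) in Spp1-high and 0.497 in Spp1-low cells. In members, iron genes were higher for 1 of 9 and lower for 5 (median -0.77, which turned to 0.092 with at least 10 UMIs), with the ferritin genes Fth1 and Ftl1 at ratios of 0.520 and 0.585. Mmp12, a macrophage elastase, had 120 CPM in KO and 418 CPM in WT. Acp5, the lysosomal acid phosphatase of osteoclasts and macrophages, had a ratio of 0.295, and Tmsb10, an actin-binding thymosin gene, had 0.299.

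Receptor, resident macrophage and vesicle genes were compared last. Of 7 osteopontin receptor genes 5 were higher and 0 lower in KO members (median 0.75), with Cd44 at 575 CPM in KO and 221 CPM in WT (2.60-fold, 2.19 to 3.09) and Itgav, the alpha-v integrin subunit, at 76.2 CPM in KO and 18.4 CPM in WT. Complement and resident macrophage genes were higher for 7 of 12 and lower for 0 (median 0.98), among them Mrc1, the mannose receptor, with 757 CPM in KO and 145 CPM in WT. C1qa had a ratio of 1.11. Hypoxia and glycolysis genes were higher for 8 of 17 and lower for 0 (median 0.41), with Slc2a1, a glucose transporter, 2.96-fold higher. Spp1-low cells differed between KO and WT in these lists too. There 7 of 13 complement and resident macrophage genes were higher and 2 lower in KO (median 1.12). Hypoxia and glycolysis genes were higher for 10 of 18 and lower for 0 (median 0.76), and receptor genes for 3 and 1 of 7 (median 0.40). Over all genes of Spp1-low cells 21.6% were higher and 15.4% lower. Of 13 Rab and exocytosis genes 3 were higher in KO members and 0 lower (median 0.19), and 1 of the 13 passed mainly through KO members. Over all genes 28.7% were higher and 12.2% lower (median 0.18), so this list lay near the share of all genes. In Spp1-low cells 4 of 16 Rab and exocytosis genes were higher and 1 lower (median 0.03). Among the 3 in members were Stx11, a syntaxin of granule secretion (59.0 CPM in KO, 9.22 CPM in WT), and Rab20, a phagosome GTPase (147 CPM in KO, 43.8 CPM in WT). Arg1, arginase 1, had 2267 CPM in KO and 1262 CPM in WT, but a median over single cells of 1740 CPM in KO and 106 CPM in WT, where 30.0% of UMIs lay in 1 cell.

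**Figure D5:**
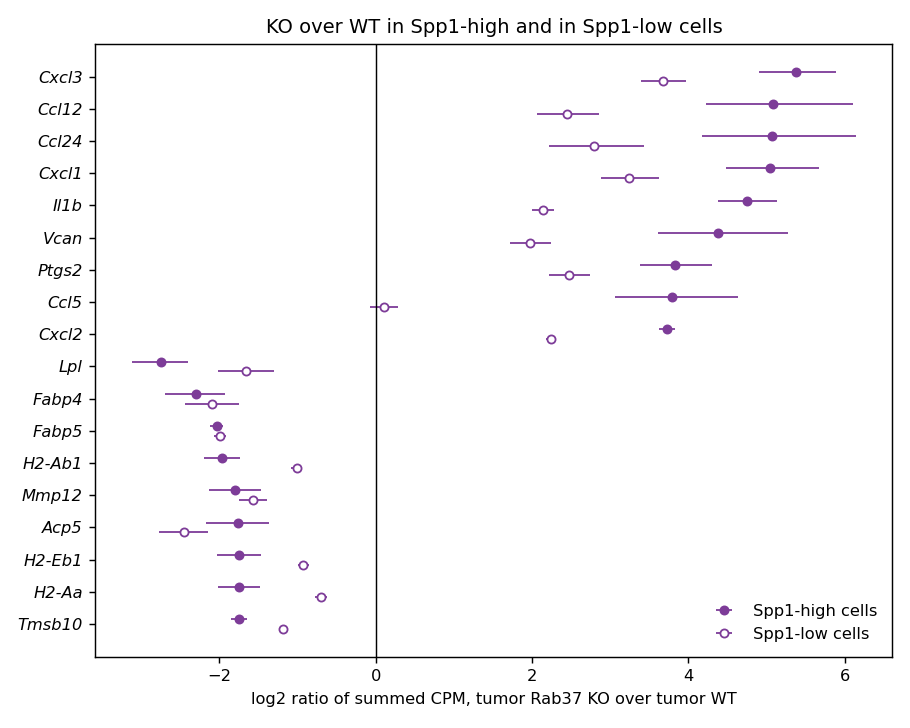
Log2 ratio of summed CPM, tumor Rab37 KO over tumor WT, in Spp1-high cells (filled) and Spp1-low cells (open) for 9 of the 10 genes ranked first in each direction by the Spp1-high ratio (Prg4, with 0 WT UMIs, is left out), with exact 95% intervals from counting. The chemokine and cytokine genes lie right of 0 in each kind of cell with Ccl5 close to 0 in Spp1-low cells (ratio 1.08, 0.953 to 1.22), and Fabp5 has nearly the same ratio in each kind (0.244 in Spp1-high, 0.251 in Spp1-low cells).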

How the data were processed

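Gene by barcode matrices of UMI counts were deposited by the authors, 1 per library, as raw counts per gene and cell with no normalization. Per the file headers they were written by software version 3.1.0 for the tumor and 3.0.1 for the normal libraries, and per the submitters' processing notes the build was mm10. Which aligner was used is not given in the sources at hand. Versions may count reads differently between tumor and normal lung.

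Cells were selected by the rule in the text, and no doublet caller was run, so doublets can remain among the deepest cells. UMIs were summed per library and kind of cell and scaled to CPM. Genes needed at least 20 UMIs over both groups, and a 1.5-fold ratio was the call. A share, level or fold against 0 used a floor of 3 counts per pool of cells in place of an interval. Of each list counted in the text between Spp1-high and Spp1-low cells or between genotypes, 0 to 4 tested genes had under 10 UMIs in 1 group and 10 or more in the other, so the minimum set their direction in part. Such genes were not counted for the lists of the Gpnmb split. Detection was compared after thinning to 3000 UMIs. With 1 library per group no p-value is given. PCR copies are removed by UMIs, but intervals do not cover differences between animals.

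Named genes were Spp1, Lyz2, Gpnmb, Rab37, the osteopontin receptors, the first 15 higher and 15 lower genes with at least 200 CPM and 20 UMIs in the higher group and intervals that do not overlap in each tumor library, the first 10 higher and 10 lower between genotypes, and genes of the lists. Of the ranked genes, 1 higher in Spp1-high cells and 1 lower in KO are not reported here. Genes named with the Gpnmb split were chosen after its values were seen. The cells and lists were chosen with earlier results of these data known. Python 3.11.15, numpy 2.4.6, pandas 2.3.3, scipy 1.17.1 and matplotlib 3.10.9 were used, and the ratios were tested on simulated data. Alternatives varied each limit of the rule, the UMI minimum, the scaling, thinning and the Spp1-low cells used.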

Additional observations from a re-analysis of the deposited data

Results flagged for a closer look

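Among list genes with at least 50 CPM in the higher group of each tumor library, 4 chemokine genes were at least 1.5-fold higher in Spp1-high than in Spp1-low cells of 1 library and at least 1.5-fold lower in the other, with counting intervals that exclude 1; the difference was not tested. Ccl7 had a ratio of 0.626 in KO (170 CPM in Spp1-high, 271 CPM in Spp1-low cells) and 2.99 in WT (248 CPM in Spp1-high, 82.8 CPM in Spp1-low cells), with 21.7% and 37.7% of the Spp1-high UMIs of KO and WT in 1 cell. Cxcl1 had a ratio of 1.63 in KO (990.3 CPM in Spp1-high, 607 CPM in Spp1-low cells) and 0.466 in WT (30.0 CPM in Spp1-high, 64.4 CPM in Spp1-low cells). Cxcl10 had a ratio of 2.04 in KO (151 CPM in Spp1-high, 74.0 CPM in Spp1-low cells) and 0.0327 in WT (2.30 CPM in Spp1-high, 70.5 CPM in Spp1-low cells), with 78.9% of the KO Spp1-high UMIs in 1 cell. Cxcl9 had a ratio of 0.360 in KO (34.4 CPM in Spp1-high, 95.5 CPM in Spp1-low cells) and 3.05 in WT (62.2 CPM in Spp1-high, 20.4 CPM in Spp1-low cells), with 100% and 70.4% of the Spp1-high UMIs of KO and WT in 1 cell.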

How the results depend on the processing

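Of the values recomputed, 1527 were classed as the same as the main value, 433 as moved and 4 as reversed, and the cause was not tested. A value was classed as reversed only if its main value had reached the fold used to call genes. Sign changes of smaller values are therefore not among the 4, and a value classed as the same or moved can have changed sign. Numbers of genes have no direction and were classed by size only. Against C1q-positive Spp1-low cells, Napsa in KO reversed to 0.60 and Timp2 in KO to -0.012 (log2), 100 genes were higher and 171 lower in both libraries, 608 were higher in KO and the KO monocyte median was -0.034. With at least 10 UMIs the iron and heme median of KO over WT reversed to 0.092, and with at least 100 UMIs the growth factor median of WT Spp1-high over Spp1-low cells to -0.18. A limit of 0.6% Spp1 gave an MHC class II median of KO over WT of -0.65, and shares of 6.16% in KO and 24.8% in WT.

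With at least 10 UMIs, 910 genes were higher in WT Spp1-high over Spp1-low cells; against C1q-positive cells 917 were higher in KO and 1008 higher and 1746 lower in WT, and against C1q-negative cells 1091 were higher in WT. With at least 100 UMIs, 284 were higher and 485 lower in KO, 153 and 385 in WT, 78 and 74 in both, and 539 and 256 for KO over WT; against C1q-positive cells 117 and 266 in KO, 103 and 184 in WT; against C1q-negative cells 328 and 485 in KO, 172 and 347 in WT.

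After thinning to 3000 UMIs, 353 were higher and 812 lower in WT, 105 and 208 in both, and 571 and 365 for KO over WT. Against C1q-positive cells they were 326 and 473 in KO, 257 and 367 in WT, and against C1q-negative cells 692 higher in KO, and 325 and 638 in WT. The inflammatory median of KO over WT was 3.26 after thinning, 3.79 with no limit on neutrophil genes and 1.65 in Gpnmb-positive cells, the last 2 settings chosen after seeing the data. With no neutrophil limit 2338 genes were higher in KO against C1q-negative and 401 against C1q-positive cells, and 1502 were lower for KO over WT. The log2 ratio of Gpnmb in KO cells of at least 0.6% Spp1 over cells with 0 Spp1 UMIs was 2.49 with at most 5% mitochondrial counts, 3.83 with neutrophil genes below 0.1% and 3.70 after thinning.

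No paired analysis was possible because each group had 1 library and the labels carry no replicate numbers. Cell numbers also limit the KO values, since the 18 Gpnmb-positive and 26 Gpnmb-0 cells are few and 1 cell can hold most UMIs of a gene.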

Other observations

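Matrix, growth factor and cell-cycle genes were also counted in Spp1-high cells. Over all genes 10.2% were higher and 15.2% lower than in Spp1-low cells of KO, and 8.63% higher and 23.9% lower in WT. Growth factor genes were higher than in Spp1-low cells for 3 of 13 and lower for 2 in KO, against 6 of 9 higher and 1 lower in WT. Matrix and protease genes were higher for 4 of 12 in KO and 3 of 11 in WT, with 1 lower in each. Ecm1, an extracellular matrix protein gene, had 675 CPM in Spp1-high and 186 CPM in Spp1-low cells of KO, and 207 CPM in Spp1-high and 234 CPM in Spp1-low cells of WT. Cell-cycle genes were lower for 7 of 16 and higher for 1 in KO, and lower for 4 of 9 and higher for 0 in WT. Of these genes 2 in KO and 1 in WT passed mainly through the Spp1-low cells. A UMI of Mki67 or Top2a was found in 9 of 44 KO and 11 of 54 WT members.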
